A study of Homo sapiens with 6 samples.

Results

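Tubulin genes were described here in RPMI-8402, a human T-cell acute lymphoblastic leukaemia line, together with TUBBP1, a pseudogene of beta tubulin. The 10 genes, of 63677 gene rows in the deposited count table, are the beta tubulins TUBB, TUBB4B, TUBB2A, TUBB2B and TUBB6, the alpha tubulins TUBA1A, TUBA1B and TUBA1C, the gamma tubulin TUBG1, and TUBBP1. They were taken by gene symbol, and of several identifiers with one symbol the identifier with the most reads was used. For TUBB this left 1 of 8 identifiers, the other 7 having no reads. The set was chosen by tubulin family membership around TUBBP1, and TUBBP1 was selected on its measured DOX to DMSO fold change and adjusted p-value in these libraries, so the differences between those groups are given as a description, and calls by a test are counted without being read as support. Of the 10 genes, 8 had enough reads to enter the fit over 15949 genes, while TUBB2B and TUBB6 did not.

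All 6 libraries came from cells with stable Cas9, in which doxycycline switches on guide RNAs against MYC and MYCN, 2 related transcription factors that drive growth and division. The treatment text of the labels names guides against MYC alone and the genotype of the DOX group names a knockout of MYCN alone, while the description of the series names both. The DMSO group (3 libraries, genotype given as control) received the solvent alone, and the DOX group (3 libraries) received doxycycline for 72 h. Both groups thus hold the nuclease, and they differ in the drug as well as in the induced guides, whose parts cannot be told apart here. Whether the line is 1 clone is not given in the labels. RNA was read by RNA-seq of the bulk culture, so fewer cells with a transcript and less transcript per cell cannot be told apart. The names DMSO 11, 23 and 35 and DOX 12, 24 and 36 join the group to a number that heads the library's column of counts and stands in none of the sample labels.

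Each library held between 28602145 and 29204148 assigned reads. DMSO 11 stood apart from the other control libraries: over 9311 genes at 10 CPM (reads scaled to a common library total) or more, its root mean square log2 distance was 0.43 to DMSO 23 and 0.41 to DMSO 35, but 0.18 to 0.21 to the DOX libraries. DMSO 23 and DMSO 35 were 0.17 apart, and the DOX libraries 0.11. The differences of the 8 genes and of the pathway genes named are therefore given with and without DMSO 11. The targeted MYCN was at 91.1 ± 16.7 CPM (SD, n = 3) in DMSO and 49.98 ± 3.80 CPM (SD, n = 3) in DOX, with every DOX library below every DMSO library. MYC was at 245 ± 39.7 CPM and 199.7 ± 6.57 CPM (SD, n = 3 each), and its groups overlapped; a guide can cut a gene without lowering its RNA, so these levels do not measure editing. The T-lineage genes LCK (685 ± 40.3 CPM in DMSO, SD, n = 3) and CD3E (409 ± 16.9 CPM) were abundant, all 13 listed T-lineage genes passed the filter, and the B-cell gene MS4A1 and the endothelial gene PECAM1 had no reads.

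Alpha and beta tubulin chains pair as heterodimers, which polymerise head to tail into the microtubules of the spindle and the interphase cytoskeleton, and gamma tubulin in its ring complex nucleates new microtubules. Cells adjust alpha and beta tubulin mRNA to the amount of free dimer: when dimer is plentiful, the factor TTC5 recognises the first amino acids of a nascent tubulin chain on the ribosome and the mRNA is degraded through SCAPER and the CCR4-NOT deadenylase. TUBBP1 is a processed pseudogene, a genomic copy of a spliced beta tubulin mRNA, and is not known to encode a tubulin chain.

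The coding starts are shown because these first codons encode the peptide that the autoregulation reads. They are the first 30 coding bases of GENCODE 29 transcripts (GRCh38), with the first 4 codons in capitals. TUBB, TUBB2A and TUBB2B lie on chromosome 6, TUBB4B on chromosome 9, TUBB6 on chromosome 18, the 3 alpha genes on chromosome 12 and TUBG1 on chromosome 17.
TUBB: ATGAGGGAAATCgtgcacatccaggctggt
TUBB4B: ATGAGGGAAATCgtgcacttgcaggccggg
TUBB2A: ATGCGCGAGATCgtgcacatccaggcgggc
TUBB2B: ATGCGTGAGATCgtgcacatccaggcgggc
TUBB6: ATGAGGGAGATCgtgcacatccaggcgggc
TUBA1B: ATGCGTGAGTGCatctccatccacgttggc
TUBG1: ATGCCGAGGGAAatcatcaccctacagttg

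TUBB and TUBB4B shared all 4 first codons, and TUBA1A and TUBA1C had the same 30 bases as TUBA1B. TUBG1, which nucleates and does not form the lattice, starts differently. TUBBP1 had 0 differences from TUBB over the first 12 coding bases, and its aligned copy of the coding part matched TUBB at 97.37% of positions, with 35 differences over 1332 alignment columns. Its match to the other beta tubulins was lower, at 83.32% for TUBB4B, 83.4% for TUBB2A and for TUBB2B, and 80.13% for TUBB6, which makes TUBB its nearest relative among them. The longest open reading frame of the TUBBP1 transcript had 229 codons, against 444 in TUBB.

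The coding ends of the beta tubulins are shown because tubulin isotypes differ most there, in the acidic tail that faces outward from the microtubule. These are the last 45 coding bases before the stop codon, and capitals mark bases that differ from TUBB in a gapped alignment. Gaps are not printed, so the lines do not line up letter under letter.
TUBB: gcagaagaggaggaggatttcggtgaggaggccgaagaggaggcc
TUBB4B: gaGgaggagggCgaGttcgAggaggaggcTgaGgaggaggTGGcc
TUBB2A: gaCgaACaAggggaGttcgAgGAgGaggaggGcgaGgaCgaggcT
TUBB6: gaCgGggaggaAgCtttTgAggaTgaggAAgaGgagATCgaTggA

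In that alignment TUBB4B had 9 bases that differ from TUBB, TUBB2A 13 and TUBB6 15. Over the whole coding part, TUBA1A and TUBA1B were 97.3% identical and TUBB2A and TUBB2B 98.2%, against 84.5% for TUBB and TUBB4B. Such likeness bears on counting: 65.9% of the 100-base stretches of the TUBB2A coding part occur letter for letter in another tubulin of the set, as do 39.1% for TUBA1B, 26.5% for TUBA1A, 26.8% for TUBA1C and 3.56% for TUBB4B. How the authors' counting treated reads that map to more than 1 place is not given in the sources used here. The split between TUBA1A, TUBA1B and TUBA1C, and between TUBB2A and TUBB2B, is therefore uncertain.

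TUBBP1 was low in all 3 DMSO libraries and high in all 3 DOX libraries. It was at 1.96, 2.34 and 2.502 CPM in DMSO 11, 23 and 35, from 55, 69 and 74 reads, and at 7.83, 6.34 and 6.16 CPM in DOX 12, 24 and 36, from 226, 181 and 177 reads. The groups did not overlap, and DMSO 11 held the lowest level of all 6. The means were 2.27 ± 0.275 CPM in DMSO and 6.78 ± 0.918 CPM in DOX (SD, n = 3 each), a log2 difference of 1.58 ± 0.17 (SE) in edgeR's fit. Without DMSO 11 this difference was 1.48 ± 0.16. The authors' deposited table lists 1.57 ± 0.21 (SE) for TUBBP1.

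TUBB, the main beta tubulin of these cells, had another pattern. Its level was 3882 CPM in DMSO 11, 1112 CPM in DMSO 23 and 1259.8 CPM in DMSO 35, against 3656, 3668 and 3477 CPM in DOX 12, 24 and 36. DMSO 11 was thus above every DOX library, the other DMSO libraries were far below them, and the groups overlapped. The log2 difference was 0.79 ± 0.42 (SE) over all libraries and 1.60 ± 0.09 without DMSO 11. Within the DMSO group, DMSO 11 exceeded DMSO 23 by 1.80 and DMSO 35 by 1.62 on the log2 scale, more than the difference between the group means.

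TUBB4B, a beta tubulin made in most tissues and used in cilia, followed TUBB at a lower level. It stood at 281, 104 and 96.3 CPM in DMSO 11, 23 and 35 and at 307, 306 and 298 CPM in DOX 12, 24 and 36. DMSO 11 was close below the DOX range and the other controls were at about 100 CPM, so the groups did not overlap, by a narrow margin. The log2 difference was 0.92 ± 0.37 (SE), and 1.60 ± 0.07 without DMSO 11.

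TUBB2A, a beta tubulin best known from neurons, was scarce. It stood at 2.04, 1.52 and 1.08 CPM in DMSO 11, 23 and 35, from 57, 45 and 32 reads, and at 3.12, 2.73 and 2.47 CPM in DOX 12, 24 and 36, from 90, 78 and 71 reads. Every DOX library was above every DMSO library, and DMSO 11 was the highest control. The log2 difference was 0.84 ± 0.25 (SE), and 1.09 ± 0.21 without DMSO 11. TUBB2B, its near copy, had 2, 2 and 1 reads in DMSO 11, 23 and 35 and 8, 4 and 3 reads in DOX 12, 24 and 36. TUBB6 had 9, 10 and 11 reads in the DMSO libraries and 9, 12 and 8 in the DOX libraries, with overlapping groups. Neither a difference nor its absence can be read from such counts.

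**Figure D1:**
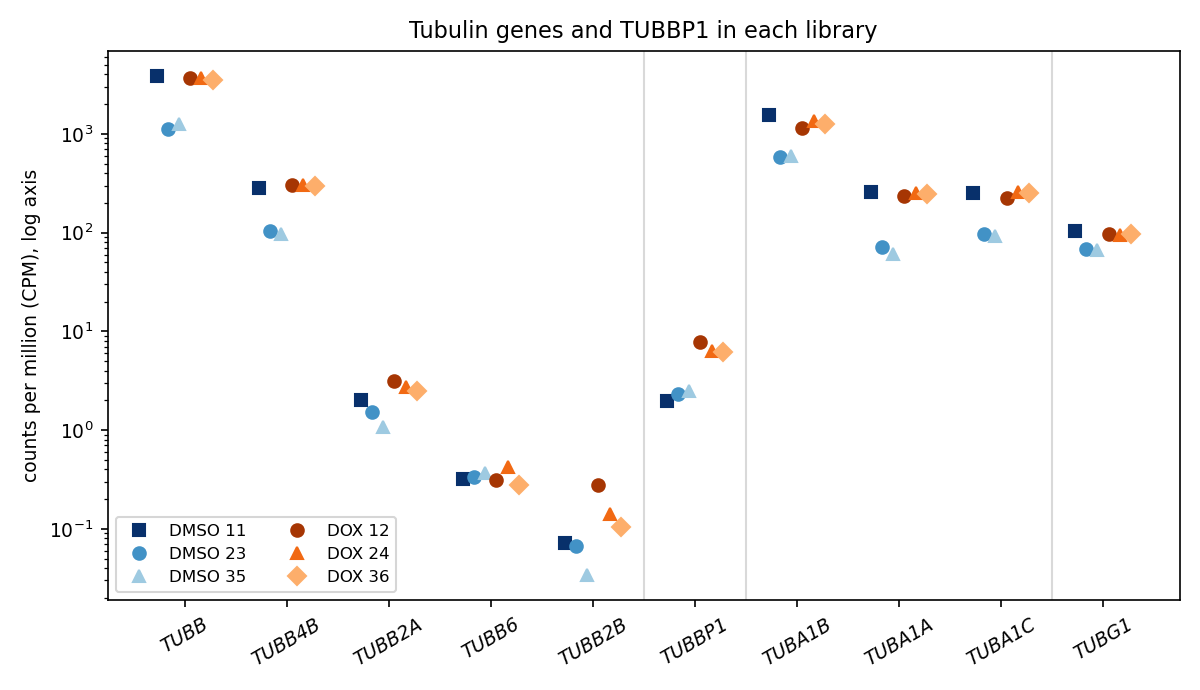
Level of each tubulin gene and of TUBBP1 in every library, in CPM on a log axis, with DMSO and DOX libraries as separate colours. DMSO 11 lies with the DOX libraries for TUBB and the alpha tubulins, but for TUBBP1, at 1.96 CPM from 55 reads, it lies with the other controls.

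The alpha tubulins repeated the pattern of TUBB. TUBA1B, the main alpha tubulin here, was at 1548, 589.6 and 599 CPM in DMSO 11, 23 and 35 and at 1137, 1344 and 1264 CPM in DOX 12, 24 and 36. DMSO 11 was the highest of all 6 libraries, and the groups overlapped, with a log2 difference of 0.45 ± 0.34 (SE) and of 1.07 ± 0.08 without DMSO 11. TUBA1A, the alpha chain mutated in cortical malformations, was at 256, 71.0 and 61.4 CPM in the DMSO libraries and at 237, 250.4 and 244 CPM in the DOX libraries. It had the widest gap between controls, with DMSO 11 above DMSO 23 by 1.85 and above DMSO 35 by 2.06 on the log2 scale. Its log2 difference was 0.92 ± 0.48 (SE), and 1.88 ± 0.07 without DMSO 11. TUBA1C, a further widely expressed alpha chain, was at 253, 96.9 and 92.6 CPM in the DMSO libraries and at 222, 257 and 252 CPM in the DOX libraries, so DMSO 11 lay inside the DOX range. Its log2 difference was 0.72 ± 0.35 (SE), and 1.36 ± 0.07 without DMSO 11.

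TUBG1, the main gamma tubulin, moved the same way over a smaller range. It was at 104, 69.0 and 66.0 CPM in DMSO 11, 23 and 35 and at 97.6, 95.5 and 97.6 CPM in DOX 12, 24 and 36, with DMSO 11 above all DOX libraries. The log2 difference was 0.28 ± 0.16 (SE), and 0.52 ± 0.06 without DMSO 11.

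Of the 8 genes in the fit, all had a positive log2 difference, with a median of 0.82 against -0.00 over all 15949 genes. TUBBP1, TUBB4B and TUBB2A had every DOX library above every DMSO library, as did 14.6% of all genes, while the other 5 overlapped. By edgeR's quasi-likelihood test 1 of the 8 passed, namely TUBBP1, which had been selected on that result. The threshold was an adjusted p of 0.05, which 0.0313% of all genes passed (0.0125% higher and 0.0188% lower in DOX, or 5 genes, with 4150 at an unadjusted p under 0.05). By DESeq2, where 9.81% of genes passed (3.37% higher, 6.44% lower), TUBBP1 and TUBB2A were called higher. In the authors' deposited table, where 2.96% of genes were called higher, TUBBP1 and TUBB2A were too. Without DMSO 11 all 8 passed in edgeR, all higher in DOX, in a fit that called 49.4% of genes (23.7% higher, 25.7% lower). With any 1 of the other 5 libraries left out, none of them passed. As the genes were chosen with this contrast known, nothing is read from these shares.

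**Figure D2:**
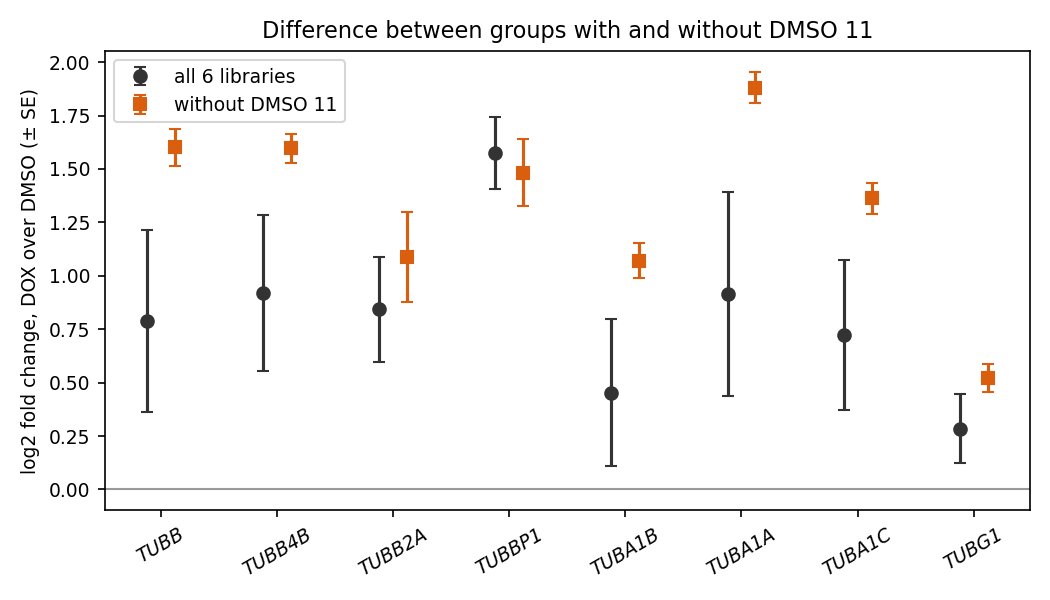
Log2 difference (DOX minus DMSO) of the 8 genes in the fit, with SE bars, over all 6 libraries and without DMSO 11. TUBBP1 lies at 1.58 and 1.48, while TUBB moves from 0.79 to 1.60.

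The gap within the control group can be set against other genes. Of the 8 genes, 5 (TUBB, TUBB4B, TUBA1A, TUBA1B and TUBA1C) were at least 2-fold higher in DMSO 11 than in both other DMSO libraries, as were 1.30% of all genes, while 3.69% were at least 2-fold lower there than in both. TUBBP1 was the only one of the 8 that was lower in DMSO 11 than in both, by 0.24 and 0.34 on the log2 scale. That small gap rests on 55 reads against 69 and 74. The share of all genes lower in DMSO 11 by any amount was not counted, so the gap is not read as a trait of TUBBP1. The excess of DMSO 11 was smaller for TUBB2A (0.40 and 0.87) and TUBG1 (0.59 and 0.65).

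Because TUBBP1 is nearly a copy of TUBB, its reads were set against those of TUBB library by library. Per 1000 TUBB reads there were 0.506 TUBBP1 reads in DMSO 11 (exact 95% binomial interval 0.381 to 0.659), 2.10 in DMSO 23 (1.64 to 2.66) and 1.99 in DMSO 35 (1.56 to 2.49). In the DOX libraries there were 2.14 in DOX 12 (1.87 to 2.44), 1.73 in DOX 24 (1.49 to 2) and 1.77 in DOX 36 (1.52 to 2.05). The intervals cover counting error only. The ratio thus lay between 1.73 and 2.14 in 5 libraries, with intervals that overlap, and the interval of DMSO 11 lay below all of theirs. In DMSO 11 the TUBB level was that of the DOX libraries and the TUBBP1 level was that of the controls.

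The ratio to other beta tubulins had the same shape for TUBB4B and another for TUBB2A. Per 1000 TUBB4B reads there were 6.997, 22.5 and 26.0 TUBBP1 reads in DMSO 11, 23 and 35 and 25.5, 20.7 and 20.7 in DOX 12, 24 and 36. Per 1000 reads of all beta tubulins together there were 0.471, 1.92 and 1.84 in the DMSO libraries and 1.97, 1.59 and 1.63 in the DOX libraries. Against TUBB2A, which is about as scarce as TUBBP1, the count per 1000 reads was 965, 1533 and 2312 in the DMSO libraries and 2511, 2321 and 2493 in the DOX libraries. DMSO 11 was again lowest, but its 95% interval (654 to 1423) overlapped that of DMSO 23 (1038 to 2284). Counting error alone thus spans the gap between these 2 libraries. The mean log2 ratio of TUBBP1 to TUBB was 0.54 higher in DOX than in DMSO, but its SD was 1.16 in DMSO against 0.17 in DOX, and without DMSO 11 the difference was -0.13. The sign of that difference therefore rests on DMSO 11.

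**Figure D3:**
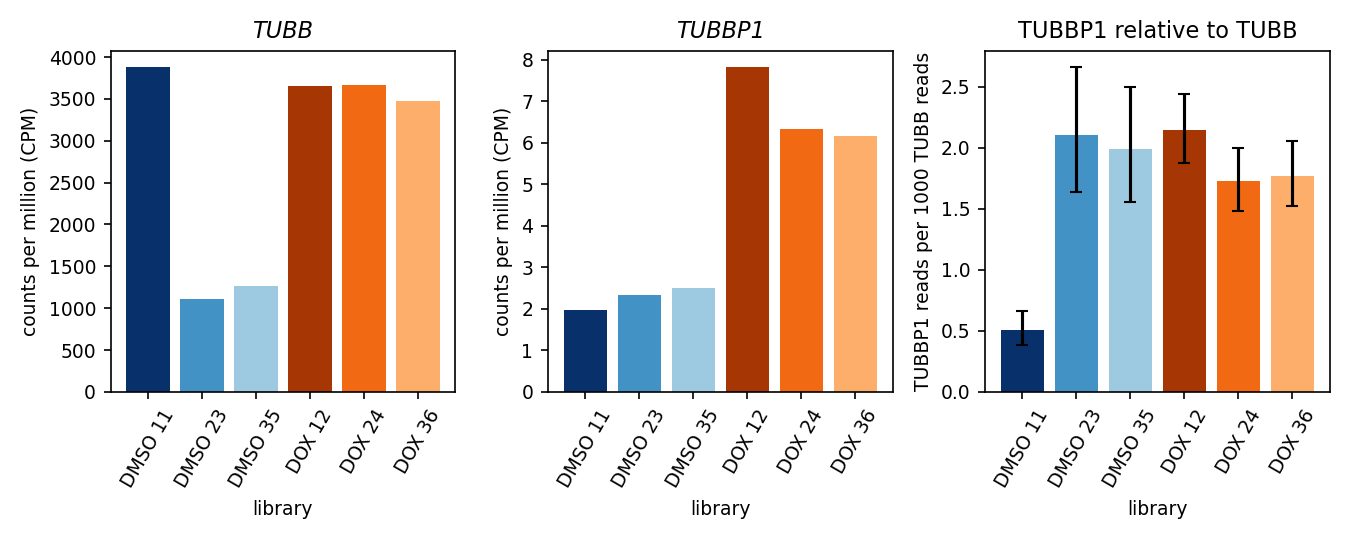
TUBBP1 reads per 1000 TUBB reads in each library, with exact 95% binomial intervals. DMSO 11 lies at 0.506 and the other 5 libraries lie between 1.73 and 2.14.

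How much of TUBBP1 matches TUBB was measured on the GENCODE 29 sequences, in stretches as long as the 100-base reads. The TUBBP1 transcript is 1646 bases long and holds 1547 stretches of 100 bases. Of these, 131 (8.47%) occur letter for letter in TUBB, and 892 (57.7%) differ from their best match in TUBB at no more than 2 bases, with a median of 2 and a maximum of 9. No stretch occurs in TUBB4B, TUBB2A or TUBB2B, where the median was 18 differences and the minimum 7, and TUBB6 was farther still, with a median of 20. A read of TUBB and a read of TUBBP1 are thus separable by few letters over most of the transcript. How many reads were assigned across this pair was not tested, since the deposited table holds counts per gene and no reads.

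**Figure D4:**
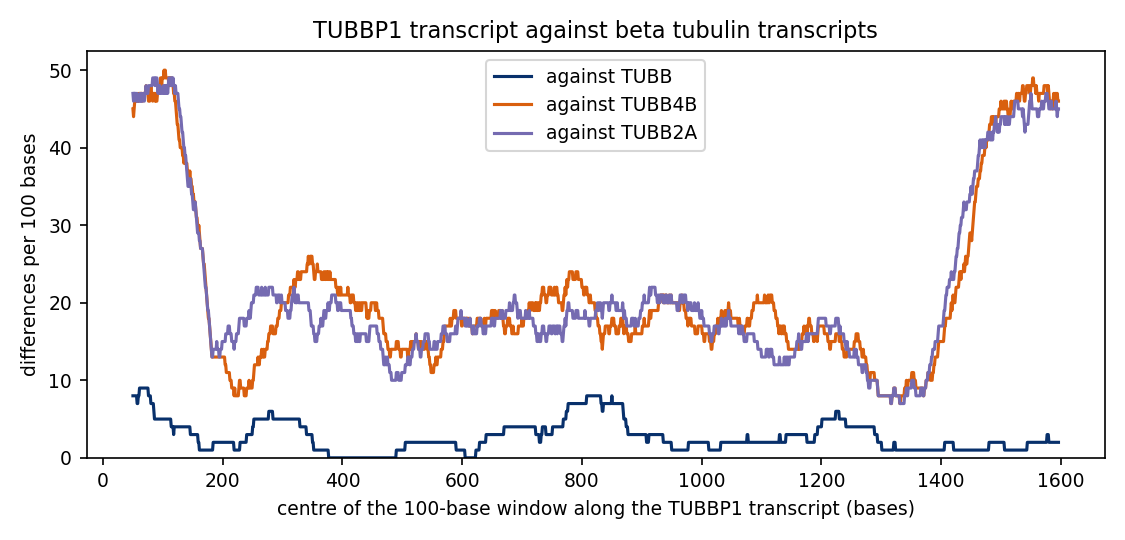
Number of differing bases between each 100-base stretch of the TUBBP1 transcript and its best match in TUBB, TUBB4B and TUBB2A, by position along the transcript. The TUBB curve stays at or below 9 differences, and the others do not fall below 7.

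TUBBP1 was also the only tubulin pseudogene with more than a few reads. Of 39 tubulin pseudogene identifiers in the table, 25 had no reads in any library, and the largest total over 6 libraries among those other than TUBBP1 was 17 reads. The nearest genes on each side of TUBBP1 on chromosome 8 that passed the filter had other patterns. DCTN6, a dynactin subunit gene before it, was at 15.7, 8.44 and 8.86 CPM in DMSO 11, 23 and 35 and at 14.4, 17.2 and 14.4 CPM in DOX 12, 24 and 36, with DMSO 11 inside the DOX range. Its log2 difference was 0.83 ± 0.11 (SE) without DMSO 11 (adjusted p = 4.16e-06, edgeR) and 0.48 ± 0.23 with it (adjusted p = 0.222, from the quasi-likelihood test of edgeR with Benjamini-Hochberg adjustment). RBPMS, an RNA-binding protein gene after it, was near the floor, at 0.893, 0.881 and 0.507 CPM in the DMSO libraries and 0.935, 0.665 and 1.15 CPM in the DOX libraries (0.27 ± 0.31, adjusted p = 0.594 in the same edgeR test, and 0.40 ± 0.32, adjusted p = 0.315, without DMSO 11). No annotated gene contained TUBBP1.

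By level per transcript length, as reads per kilobase at the same scaling (RPKM) computed from GENCODE 29 lengths, the order in DOX was TUBB (1348 ± 40.0), TUBA1B (767 ± 64.2), TUBB4B (185 ± 3.03), TUBA1A (129 ± 3.44), TUBA1C (81.2 ± 6.27), TUBG1 (60.2 ± 0.743), TUBBP1 (4.12 ± 0.558) and TUBB2A (1.74 ± 0.205), each a mean ± SD over 3 libraries. TUBB6 (0.163 ± 0.0360) and TUBB2B (0.0861 ± 0.0452) came last and did not differ beyond their spread. In DMSO the spread was too wide for such an order: TUBB was at 781 ± 584 and TUBA1B at 561 ± 339 RPKM, and TUBA1C (49.2 ± 30.5) and TUBG1 (49.4 ± 13.1) had almost the same mean. TUBBP1 was at 1.38 ± 0.167 RPKM in DMSO and TUBB2A at 0.970 ± 0.299. In DMSO 11 the order was reversed, with TUBBP1 at 1.19 and TUBB2A at 1.28 RPKM.

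The make-up of the tubulin pool varied less than its size. TUBB gave between 91.1% and 93.1% of beta tubulin reads in every library, and TUBB4B gave 6.74%, 8.53% and 7.08% in the DMSO libraries and 7.72%, 7.68% and 7.87% in the DOX libraries. TUBA1B gave 75.1%, 77.6% and 79.2% of the alpha reads in DMSO 11, 23 and 35 and 71.0%, 72.5% and 71.7% in DOX 12, 24 and 36. Its share was thus lower in every DOX library, and the share of TUBA1A was higher, at 12.4%, 9.35% and 8.13% in DMSO and 14.8%, 13.5% and 13.9% in DOX. Per 100 beta reads there were 49.4, 62.3 and 55.5 alpha reads in the DMSO libraries and 40.3, 46.6 and 46.6 in the DOX libraries. Alpha and beta tubulins together took 0.597%, 0.201% and 0.216% of all reads in DMSO 11, 23 and 35 and 0.562%, 0.576% and 0.556% in DOX 12, 24 and 36, so DMSO 11 had the largest pool.

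Likeness between members over the 6 libraries was measured as the root mean square distance of their centred log2 profiles. TUBB and TUBB4B were 0.12 apart, TUBB4B and TUBA1C 0.13, TUBA1B and TUBA1C 0.14, and TUBB and TUBA1A 0.17. TUBG1 was 0.52 from TUBB. TUBBP1 was 0.72 from TUBB, 0.64 from TUBB4B, 0.50 from TUBB2A and 0.45 from the sparse TUBB2B, so it lay farther from the abundant beta tubulins than they lay from the alpha tubulins. The genes of the whole table nearest to TUBBP1 were STX3 (distance 0.181), HIST1H4H (0.229), CDH24 (0.253), MAPK11 (0.276) and LINC00861 (0.292). All 5 were scarce: STX3, a syntaxin, went from 0.654 ± 0.0524 to 1.72 ± 0.136 CPM, and CDH24, a cadherin, from 1.11 ± 0.205 to 3.02 ± 0.369 CPM (SD, n = 3 each).

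The promoters are shown where they bear on the targeted factors: MYC and MYCN are known to bind the E-box CACGTG. In RefSeq promoter windows (GRCh38.p14), the 150 bases before 13 start sites of 9 of the genes were searched on both strands. The 13 windows are not independent promoters. The TUBA1C windows with starts 36981 and 36888 bases from the GENCODE start overlap each other, and each TUBB window overlaps an annotated tubulin exon. CACGTG occurred in 2 of the 13 windows, against 4.57% of 35116 windows of all genes. The TUBB start with this motif lay 1437 bases from that of the GENCODE transcript used here, and the TUBA1C start 175 bases. The other TUBB window, with its start 151 bases from the GENCODE start, held no CACGTG. Both matches are printed from the plus strand with the motif in capitals. They lie at chr6:30721577-30721606 for TUBB, 49 bases before a start, and at chr12:49265018-49265047 for TUBA1C, 52 bases before a start.
TUBB: gtgcgccgcagtCACGTGgagggcgggggg
TUBA1C: ccgccctcccgaCACGTGgccggggaccgg

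CCAAT, the letters read by NF-Y, occurred in 5 of the 13 windows (23.5% of all windows), and TATAA in 3 (12.1%). The windows with CCAAT include the TUBA1C window whose start lay 36981 bases from the GENCODE start. TUBB4B held both, TUBA1A held CCAAT, and TUBA1B held none of the 3 motifs although its level followed that of TUBB. A match in a window is a description of letters, and binding was not measured here.

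The pathway lists hold the genes that fold, modify and regulate tubulin and the further tubulin genes. Of 131 such genes other than the 10 above, 117 entered the fit, and by edgeR's quasi-likelihood test none passed an adjusted p of 0.05 in either direction, with 32 (27.4%) at an unadjusted p under 0.05 against 26.0% of all genes. DESeq2 called 5 higher and 3 lower of the 113 it tested (7.08%, against 9.81% of all genes). Without DMSO 11, edgeR called 64 of them, in the fit that called 49.4% of all genes. Their median log2 difference was 0.02, and 18 (15.4%) had all DOX libraries above all DMSO libraries while 20 (17.1%) had them below, against 14.6% and 15.6% of all genes.

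Over all genes, 15.6% were below in all DOX libraries and 14.6% above, which is the background for each list here. The gamma tubulin ring complex caps and nucleates microtubules. The list under its name also holds augmin subunits and centrosome factors, so its values do not describe the complex alone. This list had a median log2 difference of -0.10 over 23 genes, with 8 of them below in all DOX libraries and 1 above. Its only DESeq2 call was the subunit TUBGCP5 (DESeq2 log2 difference -0.37 ± 0.12, adjusted p = 0.0237). Its most abundant genes, the centrosome factor CDK5RAP2 (-0.16 ± 0.09) and the augmin subunit HAUS6 (-0.21 ± 0.12), passed by neither tool over all libraries. Without DMSO 11 both passed in edgeR, CDK5RAP2 at -0.22 ± 0.06 (adjusted p = 0.00736) and HAUS6 at -0.32 ± 0.07 (adjusted p = 0.000588). The chaperonin CCT and prefoldin, which fold new tubulin, had a median of -0.08 over 18 genes, of which 3 were below in all DOX libraries and 0 above. CCT4 was called by DESeq2 (DESeq2 log2 difference -0.29 ± 0.08, adjusted p = 0.0133). CCT7 (-0.18 ± 0.10) and CCT2 (-0.19 ± 0.10) passed by neither tool, nor in edgeR without DMSO 11 (-0.12 ± 0.07 and -0.14 ± 0.07). The folding cofactors, which assemble the dimer, had a median of -0.16 over 7 genes, with 2 below in all DOX libraries and 0 above. TBCA was at 0.01 ± 0.13, and at 0.17 ± 0.06 without DMSO 11 (edgeR adjusted p = 0.0329), and TBCD at -0.18 ± 0.09, and at -0.11 ± 0.06 without DMSO 11.

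The autoregulation list, TTC5 and its partners in mRNA decay, had a median of -0.17 over 12 genes. Of these, 3 were below in all DOX libraries and 1 above, beside 15.6% and 14.6% of all genes. TTC5 was at 41.3, 42.5 and 44.5 CPM in DMSO 11, 23 and 35 and at 36.03, 37.3 and 36.6 CPM in DOX 12, 24 and 36. Every DOX library was below every DMSO library, including DMSO 11, but the difference of -0.22 ± 0.08 (SE) did not pass in edgeR's quasi-likelihood test (adjusted p = 0.140). Without DMSO 11 it was -0.25 ± 0.07 and passed (edgeR adjusted p = 0.00673). CNOT10, a CCR4-NOT subunit, was the 1 DESeq2 call of the list (DESeq2 log2 difference -0.56 ± 0.18, adjusted p = 0.0311). The scaffold CNOT1 was at -0.07 ± 0.09, and at -0.06 ± 0.07 without DMSO 11, and the deadenylase CNOT7 at 0.27 ± 0.12, and at 0.41 ± 0.06 without DMSO 11 (edgeR adjusted p = 2.59e-05). TTC5 thus lacked the gap between DMSO 11 and the other controls that the alpha and beta tubulins had, but not every gene of its list did. CNOT10 was at 91.0, 145 and 147 CPM in DMSO 11, 23 and 35 and at 83.9, 91.2 and 83.5 CPM in DOX 12, 24 and 36. CNOT7 was at 257, 199 and 199 CPM and at 265, 267 and 260 CPM. Over the list, the median log2 difference of DMSO 11 was -0.07 from DMSO 23 and -0.07 from DMSO 35.

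Tubulin modifying enzymes had a median of 0.16 over 19 genes. Of these, 6 were above in all DOX libraries and 2 below, beside 14.6% and 15.6% of all genes. DESeq2 called ATAT1, the alpha tubulin acetyltransferase (DESeq2 log2 difference 0.71 ± 0.21, adjusted p = 0.0145), and KIAA0895L (0.58 ± 0.17, adjusted p = 0.0143). HDAC6, a tubulin deacetylase, was at 0.17 ± 0.11, and at 0.29 ± 0.07 without DMSO 11 (edgeR adjusted p = 0.00125). TTLL12, of the tubulin tyrosine ligase-like family, was at -0.11 ± 0.11, and at 0.01 ± 0.06 without DMSO 11. Factors that set microtubule stability and growth had a median of 0.11 over 31 genes. Of these, 8 were above in all DOX libraries and 2 below, beside the same shares of all genes. DESeq2 called MAP1A (DESeq2 log2 difference 0.71 ± 0.18, adjusted p = 0.00483), MAPRE3 (0.80 ± 0.27, adjusted p = 0.0415) and CLIP1 (0.47 ± 0.14, adjusted p = 0.0222). In edgeR's quasi-likelihood test the 8 pathway genes that DESeq2 called had adjusted p-values of 0.0892 to 0.110 over all libraries and of 1.10e-09 to 0.00143 without DMSO 11. STMN1, which binds free tubulin dimer, had the gap of the tubulins: it was at 1121, 652 and 681 CPM in DMSO 11, 23 and 35 and at 1065, 1116 and 1031 CPM in DOX 12, 24 and 36 (0.39 ± 0.20, edgeR adjusted p = 0.246). Without DMSO 11 its log2 difference was 0.68 ± 0.07 (edgeR adjusted p = 3.74e-07). CKAP5, a microtubule polymerase, was at -0.01 ± 0.09, and at 0.00 ± 0.07 without DMSO 11.

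**Figure D5:**
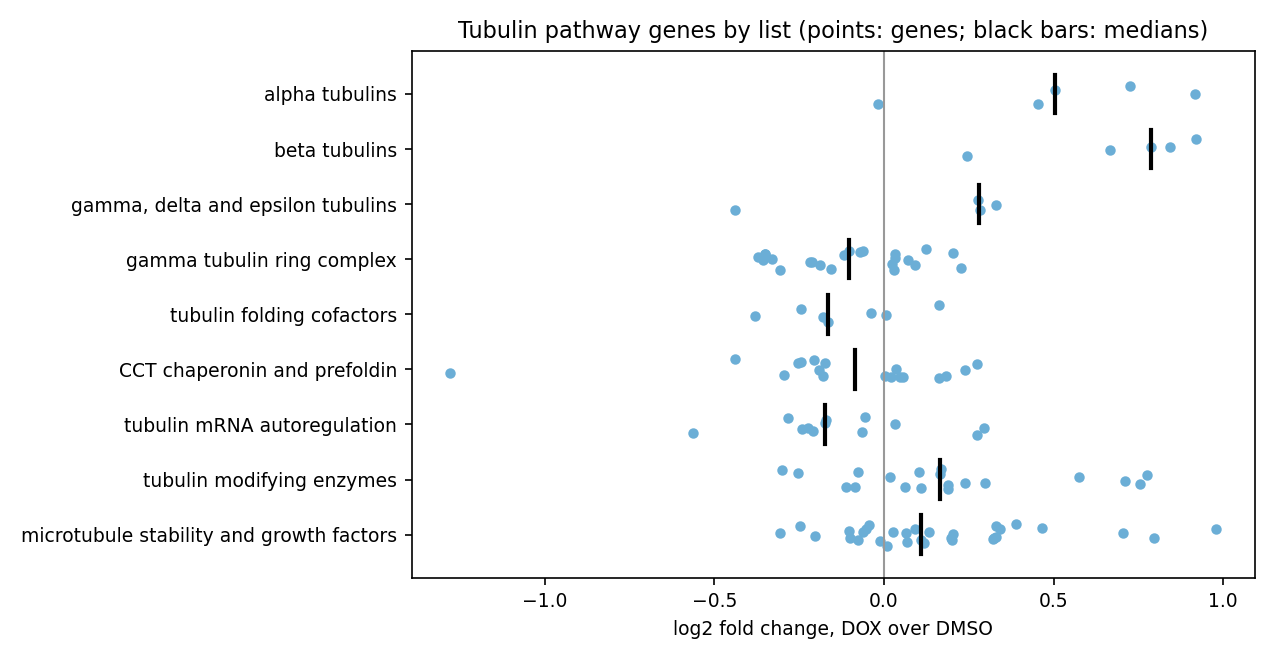
Log2 difference (DOX minus DMSO) of each gene in the tubulin pathway lists, with the list medians. The medians of the alpha and beta tubulins are 0.50 and 0.79, and those of the non-tubulin lists lie between -0.17 and 0.16.

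Other tubulin genes followed different courses. TUBB4A, a scarce beta tubulin of myelinating glia, was at 3.18, 1.29 and 1.52 CPM in DMSO 11, 23 and 35 and at 3.29, 2.77 and 3.41 CPM in DOX 12, 24 and 36. Its log2 difference was 0.66 ± 0.32 (edgeR adjusted p = 0.224), and 1.16 ± 0.19 without DMSO 11 (edgeR adjusted p = 5.66e-05). TUBG2, the second gamma tubulin, was at 26.5, 22.1 and 22.3 CPM in the DMSO libraries and 29.7, 30.9 and 28.7 CPM in the DOX libraries, without overlap. Its log2 difference was 0.33 ± 0.10 (edgeR adjusted p = 0.114), and 0.42 ± 0.08 without DMSO 11 (edgeR adjusted p = 0.000222). TUBE1, the epsilon tubulin of centrioles, went the opposite way, at 30.3, 59.4 and 58.6 CPM in the DMSO libraries and 37.8, 35.8 and 35.7 CPM in the DOX libraries (-0.44 ± 0.23, edgeR adjusted p = 0.246). Without DMSO 11 its log2 difference was -0.70 ± 0.07 (edgeR adjusted p = 1.17e-07). For TUBE1 too, DMSO 11 lay on the side of the DOX libraries.

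Markers of other lineages moved with the tubulins through 1 gene. Of 12 listed markers 5 entered the fit, and the summed level of all 12 was 6.25 to 10.3 CPM in the DMSO libraries and 13.6 to 15.0 CPM in the DOX libraries. COL1A1, a fibroblast collagen gene, was the most abundant of them in every library, at 7.11, 2.44 and 2.77 CPM in DMSO 11, 23 and 35 and 9.35, 9.18 and 9.70 CPM in DOX 12, 24 and 36 (1.20 ± 0.36, edgeR adjusted p = 0.107, and 1.85 ± 0.14, adjusted p = 2.31e-09, without DMSO 11). The T-lineage sum was 2387 to 2514 CPM in DMSO and 2267 to 2331 CPM in DOX. The part of these markers in the tubulin levels was not tested.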

How the data were processed

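RNA-seq (strand-specific, paired 100-base reads, per the labels' protocols) was analysed in 3 DMSO and 3 DOX libraries of 28602145 to 29204148 reads. Per the submitters' processing notes, reads were aligned with STAR 2.5.2a to hg19, counted with featureCounts and compared with DESeq2 1.12.4. Annotation release, strand setting and treatment of reads with several matches are not given in the sources used here. The deposited counts are raw reads per gene. The authors' deposited DESeq2 table gives a mean normalized signal, log2 fold changes with standard errors, a test statistic (score) and p-values, and its sign was checked to be DOX over DMSO. The 92 spike-in rows, all 0, were left out. No columns of other samples were present (0 unused).

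Count columns were matched to groups, not to single samples, since their numbers stand in no label. Separate cultures are not stated, so the spread behind each p-value may be only technical. Every pair of libraries differed beyond sampling noise (lowest chi-square per gene 4.17).

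The main test was edgeR 4.0.16 (R 4.3.3): filterByExpr, TMM, robust quasi-likelihood F test, Benjamini-Hochberg adjustment over 15949 genes, threshold 0.05. The SE is the absolute log2 fold change divided by the square root of F. CPM are counts per megaread of the TMM-scaled library; profiles used log2 CPM with prior count 2. Alternatives were DESeq2 1.42.0, limma 3.58.1 voom, other scalings and filters, and leaving out each library. Data were also simulated for 15720 genes, of which 200 changed 2-fold. There edgeR recovered 76.5% with 13 false calls of 166, DESeq2 77% with 36 of 190 and voom 74% with 10 of 158. These rates describe the simulated data only. Whether they hold for the measured libraries, where a control library stood apart from the other controls, was not tested.

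Sequences came from GENCODE 29 and RefSeq, both GRCh38 and not the authors' hg19, so no hg19 coordinates are given. TUBBP1 sequence is not reported here.

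The members and gene lists were chosen with earlier results of these data known. Named genes were all members and the 5 genes of at least 1 CPM nearest to TUBBP1 by profile. The nearest tested gene on each side of TUBBP1 was named too. So were the 2 most abundant tested genes in each list without an edgeR call. Genes called by DESeq2, and TTC5, TUBB4A, TUBG2, TUBE1 and COL1A1 where outside that rule, were named after their values were seen.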

Additional observations from a re-analysis of the deposited data

How the results depend on the processing

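Over all genes, edgeR called 5, and 5 or 6 were called with limma voom, DESeq2 size factors, total count scaling, a minimum of 1 CPM in 3 libraries and a non-robust fit. DESeq2 called 1383 and edgeR with no filter beyond 1 count called 1761. Leaving out 1 library gave 0 to 8109 calls, the highest without DMSO 11. Of the tubulin genes and TUBBP1, 1 was called by edgeR, 2 by DESeq2, 2 with no filter, and 0 to 8 with 1 library left out. Of the other pathway genes, 0 were called by edgeR (32 at an unadjusted p under 0.05), 8 by DESeq2, 13 with no filter and 0 to 64 with 1 library left out. The cause of these shifts was not tested.

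The log2 difference of TUBBP1 was 1.47 to 1.65 over all settings, and its edgeR call was lost when any library other than DMSO 11 was left out. The log2 TUBBP1 to TUBB ratio difference was 0.54, and -0.13 (without DMSO 11) to 0.90 (without DMSO 23) with 1 library left out. None of the 8 genes, TUBBP1 and the 7 tubulins in the fit, had a called difference that turned its direction over these settings; other genes were not followed in this way. No paired analysis was possible because the numbers of the count columns stand in no label, so the replicate numbers of the labels cannot be matched to them. Depth limited TUBB2B and TUBB6, with at most 12 reads in a library.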
